A study of Arabidopsis thaliana with 8 samples.

Results

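Fully expanded leaves of Arabidopsis thaliana harvested at day 35 after sowing (ML_35DAS) were compared with the expanding leaves 1 and 2 harvested at day 14 (EL_14DAS). The comparison rests on 4 of the 8 arrays of the series, 2 per leaf stage, taken by their titles. The other 4 arrays hold younger and older vegetative apices (Apex_5DAS and Apex_14DAS), 2 each, and entered the statistics through the shared estimate of the spread. For the younger apices the titles give day 5 while the source names give day 7. All plants were of the ecotype Landsberg erecta (Ler), a laboratory strain that carries the erecta mutation, and were raised on soil at 20 °C with a 10 h light period. No treatment or transgene was used in any group. Total RNA was hybridised to Affymetrix ATH1 arrays, on which each transcript is measured by 1 or more probe sets. The leaf number of the mature leaves is not given, and leaf stage, plant age, leaf position and harvest cannot be told apart. The labels do not say that the 2 arrays of a group came from separate plants. All p-values thus reflect no more than the scatter of these arrays, which may be technical, and 2 arrays a group give limited precision.

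A leaf of Arabidopsis first grows by cell division, which stops from the tip towards the base, and then by cell expansion, for which enzymes and expansins loosen the wall. Precursors of the guard cells and other small dividing cells persist longest in the epidermis. A fully expanded leaf no longer grows, exports sucrose made in photosynthesis through the phloem, stores defence compounds such as glucosinolates, and later remobilises its nitrogen during senescence.

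Of 22746 probe sets that are not controls, 17837 lay above the percentile 30 of their array on at least 2 arrays and were tested with limma. A probe set was called where the Benjamini-Hochberg adjusted p was below 0.05 both with equal array medians, as in the deposited table, and with quantile normalization, in the same direction. By this rule 1403 probe sets (7.87%) were higher and 1015 (5.69%) were lower in mature leaves. One probe set was taken per gene with a locus tag, which left 9870 genes. Of these 709 (7.18%) were higher and 517 (5.24%) were lower, and in every one of them the 2 mature-leaf arrays lay on the same side of both expanding-leaf arrays, as they did in 68.3% of all genes tested. With equal medians the increases were the larger. In that normalization 190 genes rose more than 4-fold and 47 more than 8-fold, against 69 and 8 among the decreases. These sizes shift with the normalization, and the pseudocount added before taking logs limits the fold of genes that fall to low intensity. Genes that rose had a median intensity of 242 in mature and 64.9 in expanding leaves, on a scale where the median of every array is 50. Genes that fell went from a median of 96.3 in expanding leaves to 31.8 in mature leaves. A further 688 probe sets called higher and 492 called lower had no single matched gene and stay unnamed here. In bulk tissue, fewer cells of a type and less RNA per cell cannot be told apart.

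**Figure D1:**
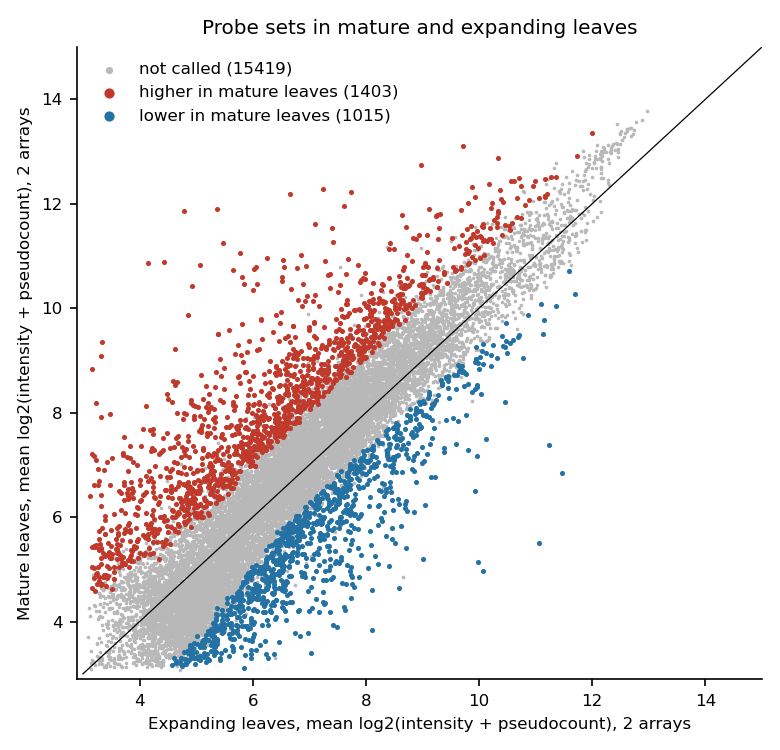
Mean log2(intensity + pseudocount) of each tested probe set in expanding leaves (x axis, 2 arrays) and mature leaves (y axis, 2 arrays), with the line of equal levels. With equal array medians, the 1403 probe sets called higher in mature leaves (red) reach farther from the line than the 1015 called lower (blue). Another 15419 were not called (grey).

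The balance of increases and decreases depended on the scaling between arrays. With equal medians alone 2500 probe sets were higher and 1305 lower, with quantile normalization alone 1477 and 1600, and with equal 2% trimmed means alone 1376 and 2550. The median change over all probe sets was 0.07, -0.05 and -0.24 on the log2 scale in these 3 scalings, so each change below is relative to it. The 2 mature-leaf arrays had wider distributions, with a percentile 75 of 195 and 188, against 151 and 164 in expanding leaves. Single arrays mattered too, and 138 higher genes (1.4% of those tested) and 83 lower genes (0.841%) were tested and called in each of the 20 alternatives that changed the scaling, pseudocount, filter, fit or arrays. These genes are called stable below, and a called gene named without a remark on lost calls or on a missing test is one of them. The remarks name mainly the arrays concerned and may leave out other alternatives that lost the call. Equal medians alone and quantile normalization alone are among the 20 and could lose no call, because each call already required both. The signal of the 25S ribosomal RNA control was 28.1 and 26.1 on the mature-leaf arrays and 1.84 and 1.01 on the expanding-leaf arrays, and the GAPDH control probe sets had a 3'/5' ratio of 1.24 and 1.25 against 0.899 and 0.858. The actin control had a 3'/5' ratio of 3.39 and 10.1 on the mature-leaf arrays, with replicate 2 far above replicate 1, and of 2.605 and 3.477 on the expanding-leaf arrays. The part of these control differences in the results was not tested. On Apex_5DAS replicate 1 the ribosomal RNA signal was 201, and more probe sets were called without that array, 1992 higher and 1502 lower, as also without the other array of that group, 1977 and 1505.

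The labels of the leaf groups were compared with marker genes, of which few had a named probe set. RCA, the activase of Rubisco, was the only matched marker of photosynthetic leaf cells out of 9, and had intensities of 5267 and 6468 in expanding and 11516 and 9973 in mature leaves (log2 change 0.88 ± 0.36 (SE), adjusted p = 0.53). CLV3, the stem cell signal of the shoot meristem and the only matched one of 9 meristem markers, lay between 0.732 and 6.43 on the 4 leaf arrays and failed the filter. Of the 2 matched markers of advanced senescence out of 7, SAG29 lay between 5.72 and 26.6 and the transcription factor gene WRKY53 between 35.1 and 69.8 on the leaf arrays, and neither was called. None of the 12 flower, pollen and seed markers was matched, so these tissues were not checked here.

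The 12 largest increases held 2 genes of aliphatic glucosinolate synthesis, BCAT4 and AOP3. BCAT4 (AT3G19710), an aminotransferase that starts the elongation of the methionine side chain, had intensities of 44.1 and 6.56 in expanding leaves and of 3670 and 3759 in mature leaves. Its log2 change of 7.08 ± 0.56 (SE) was the largest of all named genes (adjusted p = 0.00039). AOP3 (AT4G03050), which turns methylsulfinyl into hydroxyalkyl glucosinolates and is active in Ler, went from 206 and 173 to 4248 and 3747, a change of 4.34 ± 0.33 (adjusted p = 0.00039). GSTU20, a glutathione transferase of the same pathway, went from 706 and 401 to 2488 and 2926, and UGT74B1, the glucosyltransferase that forms desulfoglucosinolates, from 255 and 113 to 687 and 823. In all 4 genes the leaf groups did not overlap, as in every called gene and in 68.3% of all genes tested. The change was 2.32 ± 0.33 for GSTU20 (adjusted p = 0.013) and 2.09 ± 0.34 for UGT74B1 (adjusted p = 0.02). Both calls were lost without EL_14DAS replicate 2 and without either mature-leaf array, with an adjusted p up to 0.11 and 0.14. Of the 7 tested genes of glucosinolate synthesis and transport, 4 were higher and none lower, against 7.18% and 5.24% of all genes. The median change of the 7 was 2.09 with equal medians and 1.61 with quantile normalization, and 2 to 5 members were called with single arrays left out. The transporters GTR1 and GTR2 and the dioxygenase AOP1 changed by 0.89, 1.31 and 0.99 and were not called.

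**Figure D2:**
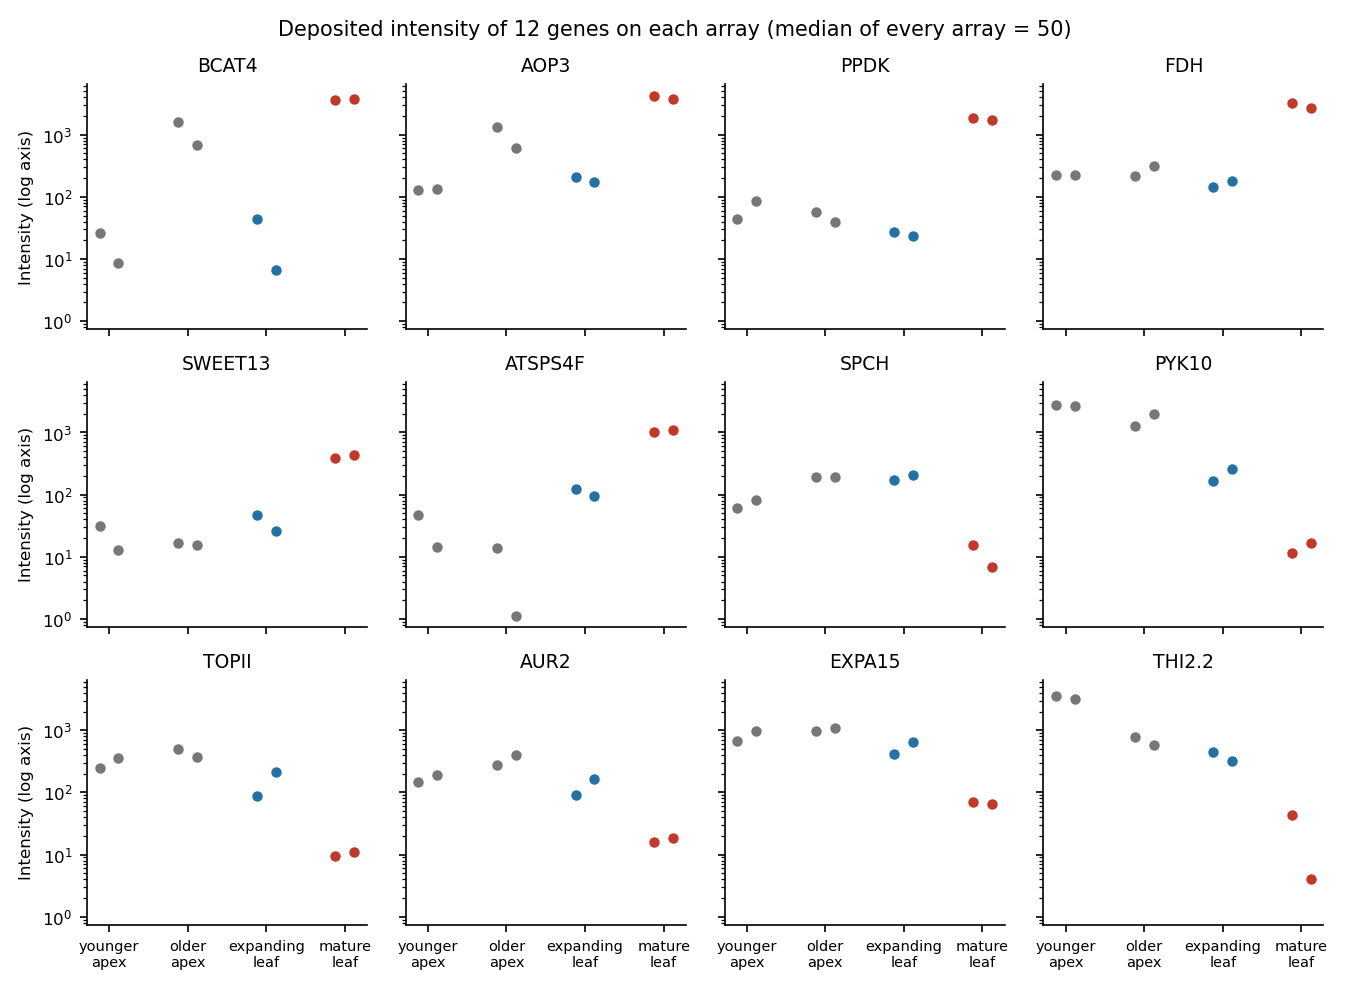
Deposited intensity (log axis) of 12 genes on each of the 8 arrays, with 1 point per array, expanding leaves in blue, mature leaves in red and apices in grey. BCAT4 and AOP3 were high in older apices and mature leaves, while PPDK and FDH were high in mature leaves alone and SPCH, PYK10, TOPII and THI2.2 were lowest there.

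The enzyme genes PPDK and FDH were also among the 12 largest increases. PPDK (AT4G15530), which makes phosphoenolpyruvate from pyruvate and is known for its part in nitrogen remobilisation from ageing leaves, went from 27.6 and 23.4 to 1862 and 1736. This change of 5.75 ± 0.29 (adjusted p = 3.7e-05) corresponds to 54.0-fold. FDH (AT5G14780), the mitochondrial formate dehydrogenase, had intensities of 146 and 177 in expanding and of 3249 and 2664 in mature leaves (change 4.13 ± 0.24, adjusted p = 3.7e-05). The list of 21 tested senescence and remobilisation genes did not move as a whole, with 3 higher, 2 lower and a median of 0.18. Of all genes 7.18% were higher and 5.24% lower. Besides PPDK, the vacuolar protease gene GAMMA-VPE rose from 244 and 143 to 964 and 856 (2.23 ± 0.31, adjusted p = 0.0048), a call lost without ML_35DAS replicate 1 (adjusted p = 0.055), and ETFALPHA, a subunit of the electron transfer flavoprotein of amino acid breakdown, rose by 1.21 ± 0.25. The transcription factor gene WRKY22 changed by -1.03 and the asparaginase gene ASPGB1 by -1.51. The calls of ETFALPHA, WRKY22 and ASPGB1 were lost without both mature-leaf arrays in turn and at least 1 expanding-leaf array. Those of WRKY22 and ASPGB1 were also lost without each older-apex array and without the filter. With single arrays left out ASPGB1 changed by -2.13 to -0.88.

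All 10 tested autophagy genes had positive changes, but 2 were called, against 7.18% called higher among all genes. APG8H, a ubiquitin-like protein of the autophagosome membrane, went from 304 and 318 to 996 and 747 (1.45 ± 0.24, adjusted p = 0.009), and ATG8B of the same family from 29.9 and 21.7 to 69.3 and 64.5 (1.16 ± 0.29, adjusted p = 0.018). The leaf groups of both genes did not overlap, as in every called gene and in 68.3% of all genes tested. The call of APG8H was lost without EL_14DAS replicate 2 and ML_35DAS replicate 1 (adjusted p up to 0.11), and that of ATG8B without any of the 4 leaf arrays (up to 0.13) and with equal trimmed means. The median of the list was 0.85 with equal medians and 0.60 with quantile normalization, and 5 members passed with equal medians alone.

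Of the SWEET sugar transporters, SWEET13 had the largest increase. SWEET13 (AT5G50800), a sucrose exporter of the phloem loading clade, had intensities of 47.4 and 26 in expanding leaves and 387 and 433 in mature leaves. The change was 3.26 ± 0.35 (adjusted p = 0.00088). SWEET11, of the same clade, was already at 725 and 527 in expanding leaves and reached 3087 and 2868. Its change of 2.25 ± 0.54 barely passed (adjusted p = 0.049) and the call was lost without each array of the leaves and of the older apices (adjusted p up to 0.21) and in 4 of the other alternatives. SWEET17, a fructose transporter of the vacuole, went from 56.7 and 35.1 to 175 and 224 (1.96 ± 0.27, adjusted p = 0.0038, and 0.053 without ML_35DAS replicate 2). Of the 16 tested SWEET genes these 3 were higher, SWEET1 was lower and 12 were not called, against 7.18% higher and 5.24% lower of all genes. SWEET1, a glucose transporter, went from 1157 and 956 to 554 and 585 (-0.88 ± 0.28, adjusted p = 0.048), a call lost without 6 of the 8 arrays (up to 0.22), all but those of the younger apices. The median of the 16 was -0.21.

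Among 14 tested genes of sucrose, starch and vacuolar sugar, 2 were higher and 2 lower, against 7.18% and 5.24% of all genes. ATSPS4F, a sucrose phosphate synthase, went from 123 and 96 to 1014 and 1083, a 9.03-fold increase (adjusted p = 0.006). It was lost without either mature-leaf array (adjusted p up to 0.062). SFP1, a member of the monosaccharide transporter family, went from 253 and 299 to 992 and 984 (1.81 ± 0.21, adjusted p = 0.0031). DPE1, the plastid disproportionating enzyme of starch breakdown, fell by 1.42 on the log2 scale and TMT2, a tonoplast sugar transporter, by 0.98. These 2 calls were lost without EL_14DAS replicate 1 and without either mature-leaf array (adjusted p up to 0.11 for DPE1 and 0.16 for TMT2).

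Of 29 tested nuclear genes for thylakoid proteins, 2 were called higher and none lower, against 7.18% and 5.24% of all genes. With equal medians 26 of the 29 had positive changes and the median change was 0.60, but with quantile normalization the median was 0.07. LHCB4.3, a minor antenna protein, was called higher at 178 and 381 against 1046 and 951 (1.90 ± 0.41, adjusted p = 0.039), and the calcium-sensing protein gene CaS at 1368 and 1631 against 2975 and 2787 (0.94 ± 0.26, adjusted p = 0.032). LHCB4.3 was lost without each array except the 2 of younger apices and EL_14DAS replicate 2, and CaS without each array except the younger apices. Both were also lost without the intensity trend, and LHCB4.3 without the filter. CaS also fell short with equal trimmed means, where its change was 0.59. Of 10 tested carbon fixation and photorespiration genes, PPDK alone was called. The other 9 lay between -0.76 for PGM and 0.88 for RCA.

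No call was made with limma among 61 tested plastid-encoded genes, of which 3 had an unadjusted p below 0.05 with both normalizations. Of all 9870 genes tested, 7.18% were called higher, 5.24% were called lower and 2413 had such an unadjusted p. Equal trimmed means alone called 2 of the 61 lower. The 44 of them for photosynthesis had a median change of -0.06 and ranged from -1.68 for ndhG (adjusted p = 0.11) to 1.84, and the median intensity of the list was 58.5 and 35.1 in expanding and 31.8 and 37.7 in mature leaves. The ATH1 values for these transcripts were thus low and uneven between the arrays, and on Apex_5DAS replicate 1 the same list had a median of 275. Of 11 tested chlorophyll genes 2 fell and 9 were not called, against 5.24% lower of all genes, with a median of -0.70. PORB, the light-dependent enzyme that reduces protochlorophyllide, went from 3142 and 2195 to 972 and 1126 (-1.32 ± 0.34, adjusted p = 0.02), and CHLI2, a subunit of magnesium chelatase, from 464 and 695 to 274 and 282 (-1.01 ± 0.26, adjusted p = 0.019). Both were lost without either mature-leaf array and without 1 expanding-leaf array, replicate 1 for PORB and replicate 2 for CHLI2 (adjusted p up to 0.15 and 0.13). With quantile normalization alone 7 of the 11 were lower and the median was -1.13. Cpn60beta2, a chaperonin of the stroma, went from 1486 and 1477 to 620 and 661 (-1.20 ± 0.23, adjusted p = 0.0047, and 0.066 without ML_35DAS replicate 1), the only called gene of 28 in plastid division, import and RNA processing.

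**Figure D3:**
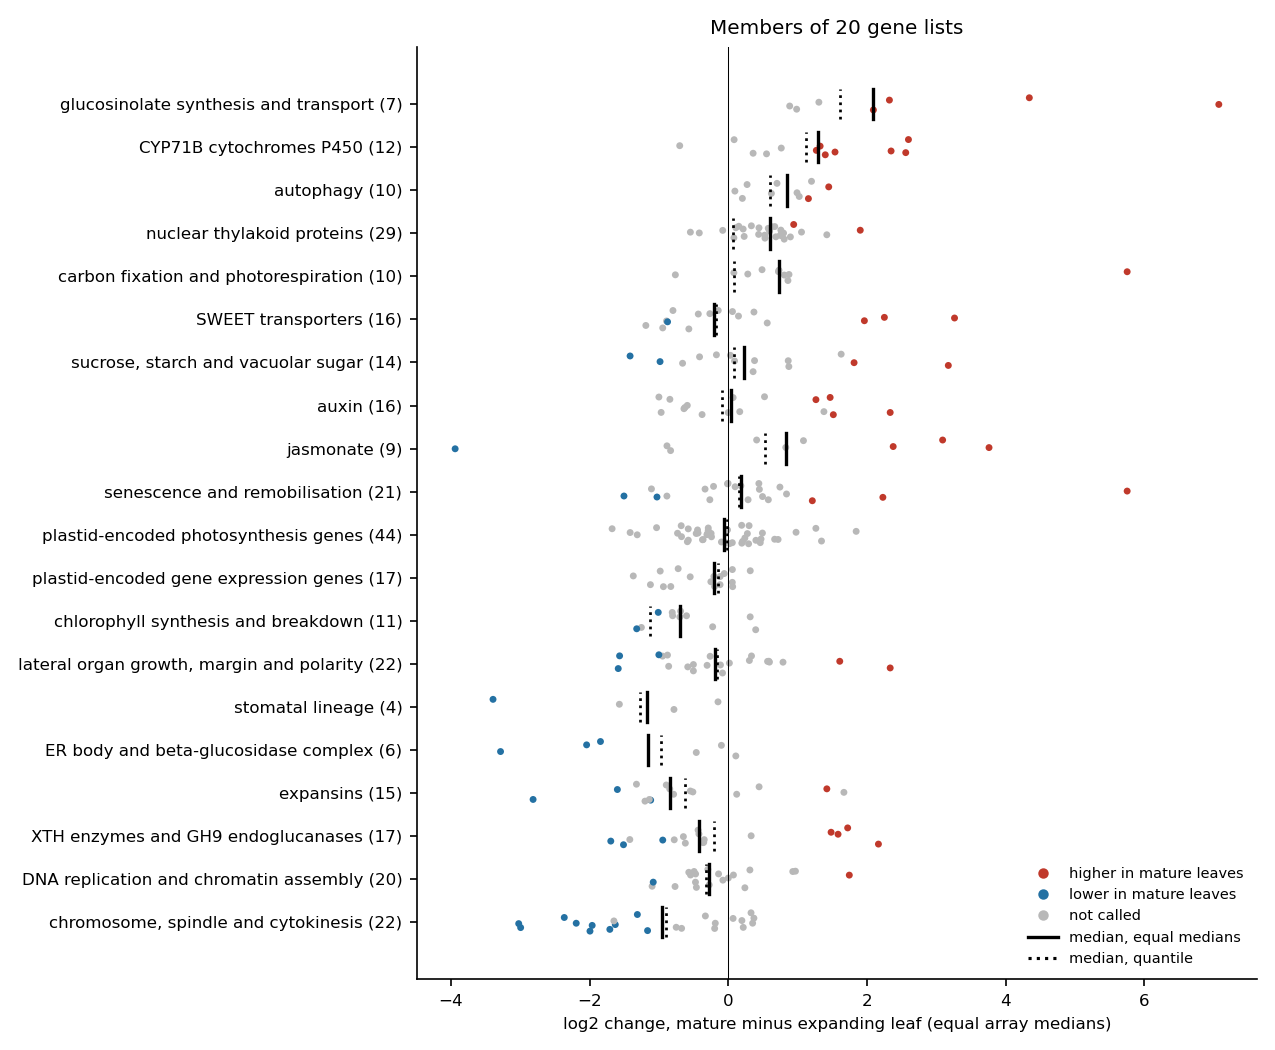
Log2 change from expanding to mature leaves (x axis) of each tested member of 20 gene lists (rows, with the number of tested genes), coloured by call, with the median under equal array medians (solid) and quantile normalization (dotted). Increases reach 7.08 in the glucosinolate list and decreases -3.94 in the jasmonate list, the medians of thylakoid and carbon fixation genes move towards 0 with quantile normalization, and that of chlorophyll genes moves from -0.70 to -1.13.

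Defence-related genes changed in both directions. The plant defensin gene PDF1.2b had intensities of 14.8 and 14.6 in expanding and 225 and 401 in mature leaves (3.76 ± 0.34, adjusted p = 0.00039), and its close relative PDF1.2 of 21.4 and 13.7 and of 128 and 119 (2.38 ± 0.31, adjusted p = 0.0011). The probe set of PDF1.2b is of a type whose probes can also bind other transcripts, so the 2 defensins may share signal. JMT, the methyltransferase that makes methyl jasmonate, went from 6.61 and 5.16, near the pseudocount of 8.02, to 109 and 112. The change of 3.09 ± 0.50 (adjusted p = 0.003) became 2.03 with the pseudocount at percentile 40. THI2.2 (AT5G36910), a thionin, moved the other way, from 445 and 317 to 43.7 and 4.06. Its change of -3.94 ± 0.52 was the largest decrease of the called genes with equal medians (adjusted p = 0.0019). With quantile normalization it changed by -3.90 and AT4G29020 by -4.06. With single arrays left out the change of THI2.2 ran from -4.99 to -2.89. Of the 9 tested genes of the jasmonate list 3 rose, 1 fell and 5 were not called, against 7.18% higher and 5.24% lower of all genes, among them the transcription factor genes MYC3 and MYC4 at 0.83 and 1.08. Of 16 immunity genes 1 was higher and 1 lower. CHI, a chitinase gene (AT2G43570), went from 4.3 and 37.8 to 285 and 288 (3.63 ± 0.53, adjusted p = 0.0047), a call lost without ML_35DAS replicate 2 (adjusted p = 0.05). PTI1-4, a protein kinase, fell by 0.93, and was lost without 3 leaf arrays (up to 0.11), all but EL_14DAS replicate 1. RING1 (AT5G10380), a RING finger ubiquitin ligase, was at 57.2 and 39.7 in expanding and 804 and 840 in mature leaves, a change of 3.89 ± 0.39 (adjusted p = 0.00084).

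CYP71B genes, a branch of the cytochromes P450 with roles in specialised metabolism, were called higher in 7 of 12 tested cases and lower in none, against 7.18% and 5.24% of all genes. Their median change was 1.298 with equal medians and 1.12 with quantile normalization. CYP71B26 went from 29.7 and 20.7 to 159 and 231 (6.06-fold, adjusted p = 0.0075), and CYP71B36 from 2 and 11.1 to 73.7 and 73.5 (2.56 ± 0.46, adjusted p = 0.0056). CYP71B36 passed the filter through the mature-leaf arrays alone. No call in this family was stable, and with single arrays left out between 0 and 7 members were called. CYP71B26 was lost without ML_35DAS replicate 2 (adjusted p = 0.08) and CYP71B36 without either mature-leaf array (up to 0.055), and the change of CYP71B36 was 3.58 or 1.57 once the pseudocount was set to percentile 5 or 40. On chromosome 3, 7 tested members carry locus tags that begin with AT3G26, of which 4 were higher and the lowest, CYP71B37, changed by -0.70. Similar sequences among these neighbours may share signal. Of the other enzyme families of this kind, 3 of 31 UDP-glycosyltransferases and 2 of 8 tau glutathione transferases were higher and none lower. GT72B1, a glycosyltransferase of phenolic compounds and foreign chemicals, went from 158 and 204 to 649 and 648 (1.81 ± 0.24, adjusted p = 0.0037).

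Other large increases belonged to genes for which the annotation gives a locus tag alone. AT1G67860 went from 1.79 and 2.35, below the pseudocount, to 831 and 498 (6.01 ± 0.48, adjusted p = 0.00026), and AT1G64360 from 2.46 and 1.57 to 506 and 559 (5.75 ± 0.32, adjusted p = 3.7e-05). AT1G23130 reached the highest level of these, from 129 and 65.9 to 4783 and 4484 (5.53 ± 0.67, adjusted p = 0.0028). AT1G64370, which has no gene between it and AT1G64360 in the RefSeq order, rose by 4.61 ± 0.38, from 79.4 and 30.3 to 1554 and 1270. AT1G67870, 1 gene away from AT1G67860, rose by 3.63 ± 0.44 in the same way, and was looked up after the values of its neighbour were seen. AT4G14020, AT2G32160 and AT1G13470 rose 16.0-fold, 15.9-fold and 14.9-fold. The call of AT1G13470 was lost without ML_35DAS replicate 1 (adjusted p = 0.051). Over all tested genes, 3130 pairs of direct neighbours were both tested, and in 23 pairs both genes were higher. A called gene's neighbour was also higher in 10.5% of cases, against 7.18% of all genes. For lower genes this share was 4.46%, with 7 pairs, against 5.24%.

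Of 22 tested cell division genes 10 fell. 3xHMG-box2 (AT4G23800), a chromatin protein of mitotic chromosomes, had intensities of 173 and 301 in expanding and of 27.8 and 15.6 in mature leaves, a change of -3.02 ± 0.41 (adjusted p = 0.0027). TOPII (AT3G23890), the topoisomerase that untangles sister chromatids, went from 87.9 and 211 to 9.33 and 11, 7.98-fold lower (adjusted p = 0.0016). The Aurora kinases, which regulate spindle and division plane, fell together. AUR2 went from 91.9 and 162 to 16 and 18.6 (-2.37 ± 0.30, adjusted p = 0.0016), and AUR1 from 163 and 262 to 37.5 and 40.4 (-2.19 ± 0.25, adjusted p = 0.0006). AUR3, the kinase of the centromere, went from 55.7 and 52.9 to 3.04 and 14, 3.99-fold lower, with an adjusted p of 0.0072 that was 0.058 without ML_35DAS replicate 1. Its change was -2.79 and -1.19 with the pseudocount at percentile 5 and 40. In each of these genes both mature-leaf arrays lay below both expanding-leaf arrays, as in every gene called lower. The leaf groups did not overlap in 68.3% of all genes tested.

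In this list of genes for chromosomes, spindle and cytokinesis none was higher and 12 were not called, 6 of them with positive changes, against 5.24% lower and 7.18% higher of all genes. The median of the list was -0.96 with equal medians and -0.89 with quantile normalization. Beside the 5 genes above, the spindle checkpoint genes BUBR1 and BUB3.2, the condensin gene ATSMC2, the kinase gene Haspin and 3xHMG-box1 fell by 1.96, 1.71, 1.31, 1.16 and 1.63. These 5 calls were lost without at least 3 arrays each (adjusted p up to 0.12, 0.13, 0.10, 0.17 and 0.20), always including ML_35DAS replicate 1 and at least 1 expanding-leaf array. Moving the pseudocount to percentile 5 or 40 gave -3.29 or -1.01 for BUBR1, -2.89 or -0.80 for 3xHMG-box1, -2.41 or -0.98 for BUB3.2 and -1.46 or -0.74 for Haspin. The gene 3xHMG-box1 was not tested under the stricter filter, and BUBR1 not under the filter on the leaf arrays alone. From 4 to 11 members of the list were called lower with single arrays left out. Members that act outside mitosis or in the secretory pathway of the cell plate were among those not called, such as KEU at 0.37 and TPLATE at -0.20. KINESIN-12B, a motor of the phragmoplast, changed by -1.65 and was not called. DNA replication genes moved less, with 1 of 20 tested members higher, 1 lower and a median of -0.29. PRL, a subunit of the replicative helicase, went from 152 and 162 to 97.7 and 49.2 (-1.08 ± 0.32, adjusted p = 0.037). Its call was lost without each leaf array, with changes from -1.53 to -0.64, and also without the filter or the intensity trend. SKP2A, an F-box protein that targets cell cycle regulators, went from 49.8 and 134 to 304 and 288 (1.75 ± 0.40, adjusted p = 0.045). The call of SKP2A was lost without 3 leaf arrays, all but EL_14DAS replicate 2. It was also lost with the pseudocount at percentile 5, without the filter and without the intensity trend. Without EL_14DAS replicate 1 its change was 1.098.

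The stomatal lineage showed the same stage difference in its first step. SPCH (AT5G53210), the transcription factor that starts the lineage, had intensities of 172 and 209 in expanding leaves and of 15.7 and 6.85 in mature leaves. Its change was -3.39 ± 0.28 (adjusted p = 0.00027). MUTE, which acts next, was at 30.9 and 31.7 against 8.9 and 2.33 and was not called (-1.57 ± 0.47, adjusted p = 0.084). FMA, which acts in the last division of guard mother cells, was at 90.3 and 124 against 99.8 and 90 (-0.15 ± 0.31, adjusted p = 0.76), an interval that leaves room for changes in either direction. STOMAGEN, a peptide of the mesophyll that promotes stomata, changed by -0.78 and was not called. The order of the 3 transcription factor genes by size of change was thus the order in which they act. This order is a description of single values and was not tested.

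The expansin genes EXPA15 and EXPB3 fell. EXPA15, an alpha-expansin, had intensities of 419 and 650 in expanding and 70.2 and 64.4 in mature leaves, a change of -2.82 ± 0.27 (adjusted p = 0.00054). EXPB3, a beta-expansin, went from 402 and 295 to 112 and 105 (-1.60 ± 0.24, adjusted p = 0.0018). EXPA9 fell by 1.12, a call lost without each leaf and older-apex array (adjusted p up to 0.16), and the expansin-like gene EXLB1 rose from 28.5 and 22 to 81.6 and 79.7 (1.42 ± 0.27, adjusted p = 0.0054), a call lost without either mature-leaf array (up to 0.059). Of 19 matched expansin genes 15 were tested, of which 3 were lower, 1 higher and 11 not called, against 5.24% lower and 7.18% higher of all genes, and the median was -0.84. Xyloglucan enzymes and endoglucanases split, with 4 of 17 tested genes higher and 3 lower. EXGT-A3 went from 277 and 394 to 1577 and 1448 (2.17 ± 0.38, adjusted p = 0.017) and XTH32 from 325 and 305 to 1013 and 909 (1.58 ± 0.22, adjusted p = 0.018), while XTH16 went from 242 and 286 to 70.5 and 81 (-1.70 ± 0.37, adjusted p = 0.0098). The calls of EXGT-A3 and XTH32 were lost without each of the 4 leaf arrays (adjusted p up to 0.11 and 0.12), and that of XTH16 without all but EL_14DAS replicate 1 of them (0.09). TBL26, of a family that acetylates wall polymers, went from 106 and 93.8 to 700 and 689 (6.51-fold, adjusted p = 0.00073), 1 of 2 higher among 18 tested members.

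Of 6 tested genes of the endoplasmic reticulum (ER) body, a store of beta-glucosidase in seedlings and roots, 3 fell. PYK10 (AT3G09260), the main beta-glucosidase of the body, had intensities of 166 and 256 in expanding and of 11.5 and 16.7 in mature leaves. The change was -3.29 ± 0.29 (adjusted p = 0.00049). NAI2, which is needed to form the bodies, went from 41.5 and 41.7 to 5.23 and 6.39 (-1.84 ± 0.25, adjusted p = 0.0021), and JAL33, a lectin of the PYK10 complex, from 71.3 and 78.4 to 18 and 7.45 (-2.04 ± 0.34, adjusted p = 0.0045, and 0.052 without ML_35DAS replicate 2). The size of both depended on the pseudocount, with -2.62 and -1.04 for NAI2 and -2.56 and -1.35 for JAL33 at percentile 5 and 40. The other 3 of the 6 were not called, and 5.24% of all genes were lower. NAI1, the regulator of PYK10, changed by 0.11. PYK10 is also known as a root gene, and EXPA7, the other matched marker of roots among 7, was at 42.2 and 24.4 against 3.25 and 15 (adjusted p = 0.14). The summed intensity of the 2 root markers was 208 and 280 in expanding and 14.8 and 31.7 in mature leaves, and the part of root tissue in the result was not tested.

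The 12 largest decreases held 6 further genes with a locus tag alone and SBT1.3. AT4G29020 went from 2998 and 1915 to 129 and 192 (-3.86 ± 0.50, adjusted p = 0.00054) and AT5G45670 from 553 and 463 to 31.6 and 26.3 (-3.80 ± 0.24, adjusted p = 5e-05). AT3G05600, AT1G10640, AT3G12870 and AT3G17680 fell by 3.48, 3.32, 2.92 and 2.91 on the log2 scale. SBT1.3, a subtilisin-like protease, went from 361 and 328 to 38.1 and 41.7 (-2.88 ± 0.23, adjusted p = 7.1e-05). All 7 were stable.

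Among regulators of organ growth and flowering single genes were called. ARL, a relative of ARGOS that promotes cell expansion, had intensities of 76 and 102 in expanding and of 510 and 448 in mature leaves, a change of 2.34 ± 0.24 (adjusted p = 0.0011). The flower promoting MADS box gene AGL24 went from 2.15 and 2.75, below the pseudocount, to 40.6 and 45.8 (2.29 ± 0.36, adjusted p = 0.0025, with changes of 3.62 and 1.22 at the pseudocount percentiles 5 and 40). AGL24 lay below the median of every array, so it was not tested under the stricter filter, and was called in the other 19 alternatives. SMZ, an AP2-type repressor of flowering, went the other way, from 135 and 103 to 18.8 and 13.5 (-2.39 ± 0.30, adjusted p = 0.0022). FD, the bZIP partner of the flowering signal FT, fell by 1.29, but was lost in 10 of the 20 alternatives (adjusted p up to 0.22), not tested in 1 and called in 9, and changed by -2.02 and -0.65 at these percentiles. Of 18 tested clock and flowering genes these 3 were called, 1 higher and 2 lower, against 7.18% and 5.24% of all genes. Of 22 tested genes of lateral organ growth, margin and polarity, 2 were higher and 3 lower, against the same shares. YAB3, which marks the abaxial side, went from 375 and 387 to 193 and 180 (adjusted p = 0.0065, lost without either mature-leaf array at up to 0.064). ULT1, a regulator of meristem size, went from 69.7 and 100 to 20.8 and 25.3 (-1.57 ± 0.26, adjusted p = 0.0055, and 0.066 without ML_35DAS replicate 1). The trichome repressor TRY rose from 52.5 and 59.2 to 271 and 224 (3.99-fold, adjusted p = 0.0036, and 0.054 without ML_35DAS replicate 1), and ATMYC1, a bHLH factor of trichome formation, fell from 144 and 153 to 16.9 and 22.7 (-2.50 ± 0.25, adjusted p = 0.00066). The other 10 of 12 tested trichome and endoreduplication genes were not called.

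Of 16 tested auxin genes 4 were higher and none lower, against 7.18% and 5.24% of all genes, with a median of 0.03. Besides ARL they were GH3.3, an enzyme that links auxin to amino acids, at 3.84 and 1.07 against 19.4 and 22.1 (1.47 ± 0.27, adjusted p = 0.0039, with 2.71 and 0.68 at the pseudocount percentiles 5 and 40), IAGLU, which conjugates it to glucose, and the auxin-induced homeobox gene HAT2. IAGLU and HAT2 rose by 1.52 and 1.26, calls lost without both mature-leaf arrays and at least 1 expanding-leaf array (adjusted p up to 0.17 and 0.20). By limma with both normalizations, 0 of 14 tested gibberellin, brassinosteroid and cytokinin genes were called and 0 had an unadjusted p below 0.05 in both, while equal medians alone called 1 higher and equal trimmed means alone 1 lower. Of all 9870 genes tested, 2413 had such an unadjusted p.

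Single members of further families were called. UBC29 and UBC30, ubiquitin-conjugating enzymes, went from 127 and 128 to 875 and 825 (2.66 ± 0.20, adjusted p = 0.00039) and from 92.3 and 94.5 to 488 and 458 (2.24 ± 0.21, adjusted p = 0.00084), while UBC20 of the same group went from 133 and 222 to 54.1 and 49.7 (-1.59 ± 0.28, adjusted p = 0.0031). In their list of 24 tested genes 3 were higher and 1 was lower, against 7.18% and 5.24% of all genes, and the median was 0.11. The tetraspanin gene TET3 went from 94.2 and 36.3 to 598 and 556 (3.12 ± 0.36, adjusted p = 0.0021), the only call among 12. CYP78A9, a cytochrome P450 that promotes organ growth, was at 191 and 183 in mature leaves, 8.69-fold above expanding leaves (adjusted p = 0.00074). BGLU33 rose 6.45-fold, from 74.8 and 115 to 679 and 608, as the only beta-glucosidase of 11 called higher (adjusted p = 0.0022). VPS2.2, a subunit of the endosomal sorting complex that buds vesicles inwards, fell from 107 and 244 to 18.4 and 23.7 (-2.56 ± 0.34, adjusted p = 0.0017). Other subunits of that complex, SNF7.1 and SNF7.2, rose by 2.14 and 1.54, and were lost without ML_35DAS replicate 2 and 1 more leaf array (adjusted p up to 0.079 and 0.10).

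The apex arrays place these differences in the series. They share the fit but no array with the 2 leaf groups, and the apex levels are given as a description. Genes chosen for high or low values in mature leaves tend to lie below or above those leaves in other groups through that choice. The counts below were not made over all genes tested, so they have no background to be set against. The 12 largest increases had a median log2 level of 4.93 in younger apices, 5.07 in older apices, 5.69 in expanding and 10.49 in mature leaves, and none of the 12 was higher in either apex group than in mature leaves. The 12 largest decreases had medians of 8.35, 8.86, 7.82 and 4.55 in the same order. Over all 709 higher genes the medians were 6.39, 6.21, 6.19 and 7.97. Of these genes 15 were higher in older apices and 29 in younger apices than in mature leaves. Over all 517 lower genes the medians were 6.80, 6.96, 6.71 and 5.32, and older apices lay above expanding leaves in 234. TOPII was at 504 and 371 and AUR2 at 278 and 405 on the older-apex arrays, above both expanding-leaf arrays. PYK10 was at 1249 and 1995 in older and 2759 and 2619 in younger apices, and the mature leaves were the lowest of all groups. Its step between the apices was not called with limma (-0.76 ± 0.29, adjusted p = 0.32).

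**Figure D4:**
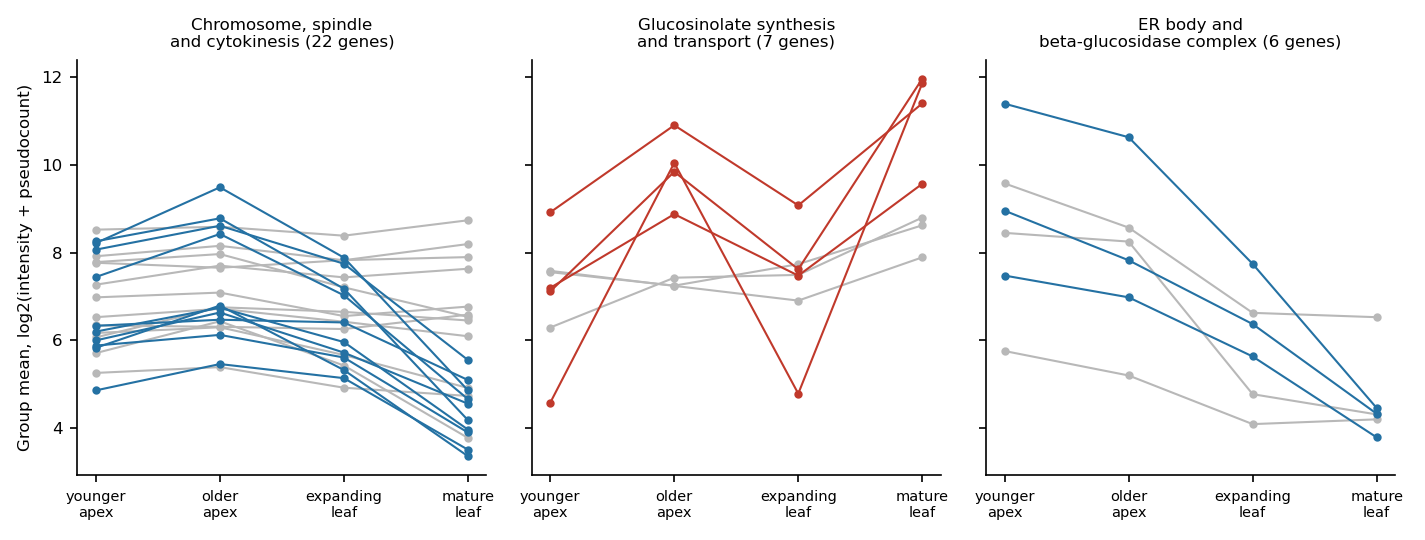
Group means of log2(intensity + pseudocount) of every tested member of 3 gene lists through the 4 groups (2 arrays each), coloured by the call between the leaf stages (red higher, blue lower, grey not called). The called division genes are lowest in mature leaves. The called glucosinolate genes are high in older apices and mature leaves and lower in expanding leaves. The means of the called ER body genes are in falling order from younger apices to mature leaves, but none of these genes was called between the apices.

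BCAT4 was at 26.2 and 8.67 in younger and at 1591 and 691 in older apices, so expanding leaves lay near the younger apices and mature leaves above the older ones. AOP3 followed the same order, with 130 and 132 in younger and 1354 and 612 in older apices. The older apices were compared with the younger ones in the same way, which called 86 genes higher (0.871%) and 160 lower (1.62%). Both comparisons used the same estimate of the spread of each gene. A gene with a low estimate is thus more readily called in both, and the overlaps are not those of independent lists. Of all genes tested, 7.18% were higher and 5.24% lower in mature leaves. Of the 709 genes higher in mature leaves, 21 were also among the 86, which is 2.96% of the first list and 24.4% of the second, and 33 were among the 160, or 4.65% and 20.6%. Of the 517 genes lower in mature leaves, 18 were among the 86 (3.48% and 20.9%) and 12 among the 160 (2.32% and 7.5%). Without Apex_5DAS replicate 1 the apex lists held 33 and 48 genes, of which 11 and 13 were higher and 4 and 6 lower in mature leaves. BCAT4 rose by 5.47 ± 0.56 and AOP3 by 2.73 ± 0.33 between the apices, and both calls held without that array. SPCH was higher in older apices (1.33 ± 0.28, adjusted p = 0.033) and lower in mature leaves, and its apex call was lost without that array.

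**Figure D5:**
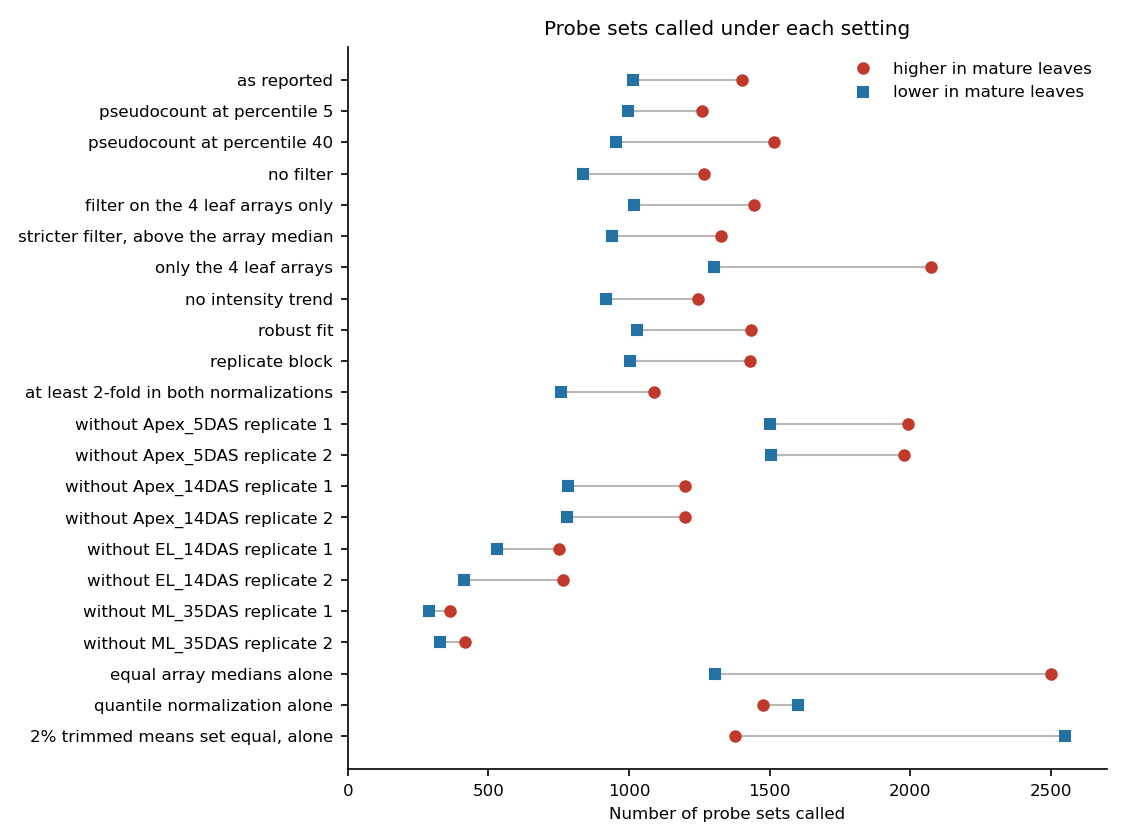
Number of probe sets called higher (red circles) and lower (blue squares) in mature leaves under the reported rule and 21 other settings (rows). Calls are fewest without a mature-leaf array (363 and 288 without replicate 1), and more are lower than higher with quantile normalization alone (1477 higher, 1600 lower) and with equal trimmed means alone (1376 higher, 2550 lower).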

How the data were processed

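Total RNA of 8 samples was measured on ATH1 arrays. The submitters' processing notes name MAS5 as the tool behind the deposited probe set intensity values; the deposited intensity table has a median of 50 on every array, and the step that set it is not stated. Names came from the platform annotation and the RefSeq gene table of TAIR10.1: 13436 of 13513 probe sets with 1 gene matched, and 8730 probe sets are not listed there. Values were tested as log2(intensity + 8.02), the percentile 20 of the table, with limma 3.58.1 in R 4.3.3 (all 8 arrays in 1 fit, eBayes with intensity trend, two-sided, 4 residual degrees of freedom). Changes and SE are those with equal medians, on this log2 scale, which understates the change of low genes. Each adjusted p is the larger of both normalizations. A gene's probe set was the one with the highest mean. The steps were tested on simulated arrays in which few genes changed. There 10% of the changes of 1 and 75% of those of 2 on the log2 scale were called, and 5 of 90 calls were false. A gene that was not called may thus still have changed.

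The comparison and the gene lists were chosen with earlier results of these data known. Named by rule were the 12 largest increases and decreases among called genes whose leaf groups did not overlap, and up to 3 called members of each list. The lists used in the text were drawn from the annotation's names after it was read, because few genes of the first set had names. List members named beyond these 3, and AT1G67870, were chosen after their values were seen. The alternatives covered scaling, pseudocount, filter, fit, replicate block, a 2-fold minimum and each array left out. Promoters were not analysed here.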

Additional observations from a re-analysis of the deposited data

How the results depend on the processing

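Both the number of calls and their balance depended on the scaling. With equal medians alone 2500 were higher and 1305 lower, with quantile normalization alone 1477 and 1600, and with equal trimmed means alone 1376 and 2550. The share of higher among all calls was 58.0% as reported, 65.7%, 48.0% and 35.0% in these 3. With single arrays left out, 363 to 1992 were higher and 288 to 1505 lower. The fewest calls came without a mature-leaf array, 363 and 288 without replicate 1 and 418 and 328 without replicate 2, and 751 and 530 or 764 and 414 were made without EL_14DAS replicate 1 or 2. Fewer arrays also lower the degrees of freedom, so a lost call can reflect lost power. Without an array of younger apices, whose replicates differed most (SD of the log2 difference 0.68, against 0.40 in mature leaves), more were called.

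With the replicate number as a block 1432 were higher and 1002 lower. The deviations of same-numbered expanding- and mature-leaf arrays correlated at -0.05. This value shows no shared shift of these arrays but cannot show whether samples of the same number were handled together. The other settings, among them a 2-fold minimum (1090 and 758) and the leaf arrays alone (2073 and 1304), stayed within 1.5 times the reported counts. Of 154 called genes singled out by rule, from the lists or after their values were seen, 52 were called in all 20 alternatives, 15 were not tested in at least 1, and none reversed. Among the 20, equal medians alone and quantile normalization alone could lose no call. Of the 2244 list counts recomputed, 1880 stayed within 1.5 times the reported one. Signals near the pseudocount limit what can be said of low genes. The planned search for promoter motifs was not run.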
